A study of Mus musculus with 34 samples.

Results

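Macrophages with an activated Jak2 kinase were compared with macrophages that lack Tet2, both after exposure to low-density lipoprotein (LDL). The comparison used 6 of the 34 RNA sequencing libraries of the series: 3 labelled Jak2VF with LDL and 3 labelled Tet2KO with LDL, chosen by genotype and treatment alone. Jak2VF mice carried 1 Jak2 allele with the V617F change and 1 WT allele, together with Vav-Cre. Tet2KO mice were Tet2fl/fl with Vav-Cre, and the WT mice used as context also carried Vav-Cre, as did the Dnmt3aKO mice (Dnmt3afl/fl). Vav-Cre is a recombinase expressed in blood-forming cells, so the alleles were changed in stem cells and their progeny and not in macrophages alone. Macrophages were derived from marrow of mice aged 10 to 14 weeks over 6 days in M-CSF (10 ng/ml) and left to rest for 24 h before 24 h with LDL (200 mg/dL) or vehicle. Whether replicate libraries stem from different animals is not in the labels, so p-values measure the spread between libraries, which may be technical.

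JAK2 is the kinase that carries signals from cytokine receptors without a kinase of their own, such as those for erythropoietin and granulocyte growth factors, to STAT transcription factors. The V617F form signals without the ligand and drives overproduction of red cells, platelets and granulocytes in myeloproliferative disease. TET2 oxidises methylated cytosine, a step towards removal of DNA methylation, and its loss favours stem cell self-renewal and stronger cytokine production by macrophages. Both genes are mutated in clonal hematopoiesis, and macrophages of such clones take up lipoprotein in the artery wall.

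Total counts of the 6 libraries ran from 26635763 to 42300610. Macrophage genes were abundant in all 6: Lyz2, which encodes lysozyme, held 15115 to 18037 CPM (counts relative to the scaled library total) in Jak2VF and 17292 to 24315 in Tet2KO. Transcripts of stromal cells were abundant too, with Col1a1, a collagen chain, at 3754 to 4201 CPM in Jak2VF and 2663 to 3980.0 in Tet2KO. Ly6g, which marks mature neutrophils, held 0.0273 to 0.0943 CPM in Jak2VF and 0 to 0.228 in Tet2KO. The Y-linked Ddx3y was present in all 6 at 89.2 to 122 CPM in Jak2VF and 56.3 to 115 CPM in Tet2KO, and Xist did not exceed 0.232 CPM. Tet2KO library 3 held 4.26 CPM of the astrocyte gene Gfap, against 0.319 CPM or less in the other 5. The balance of long against short transcripts, a sign of RNA handling, differed between libraries of 1 group: the median log2 level of the longest genes minus that of the shortest, centred over libraries, was 0.39, -0.11 and 0.36 in Jak2VF and -0.62, 0.40 and 0.01 in Tet2KO.

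Counts over whole genes say little about the altered genes themselves. Jak2 held 74.7, 64.2 and 71.1 CPM in Jak2VF and 85.5, 116 and 80.1 CPM in Tet2KO (log2 fold change -0.42 ± 0.13 with its SE, edgeR's quasi-likelihood test, Benjamini-Hochberg adjusted p = 0.0688), lower in every Jak2VF library. It was called without Tet2KO library 3, by DESeq2 and with a covariate for the balance of long and short transcripts, but not with any of the other 5 libraries left out. Tet2 held 31.2, 22 and 31.3 CPM in Jak2VF and 19.3, 40.4 and 21.4 CPM in Tet2KO, which overlap (0.06 ± 0.29, adjusted p = 0.949). A base change and the loss of a floxed exon need not alter the count of the whole gene, so neither value checks the genotype label.

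Of 19444 genes tested with edgeR, 1187 differed between Jak2VF and Tet2KO at an adjusted p under 0.05, which is 6.10% of the genes. Of these, 555 were higher in Jak2VF (2.85%) and 632 lower (3.25%), and the median log2 fold change of all genes was -0.01. With library totals in place of scaled totals the split turned, to 654 higher and 545 lower. At least a 2-fold difference was reached by 394 of the called genes (2.03% of genes tested), 170 higher and 224 lower. The groups did not overlap for 3524 genes (18.1%). The count of calls was uneven between libraries left out: it was 688 without Jak2VF library 3 and 750 without Tet2KO library 1. When the 6 libraries alone set the spread, 380 genes were called, of which 375 were among the 1187. With the long-short balance as a covariate, an alternative chosen after the values were seen, 2310 genes were called.

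**Figure D1:**
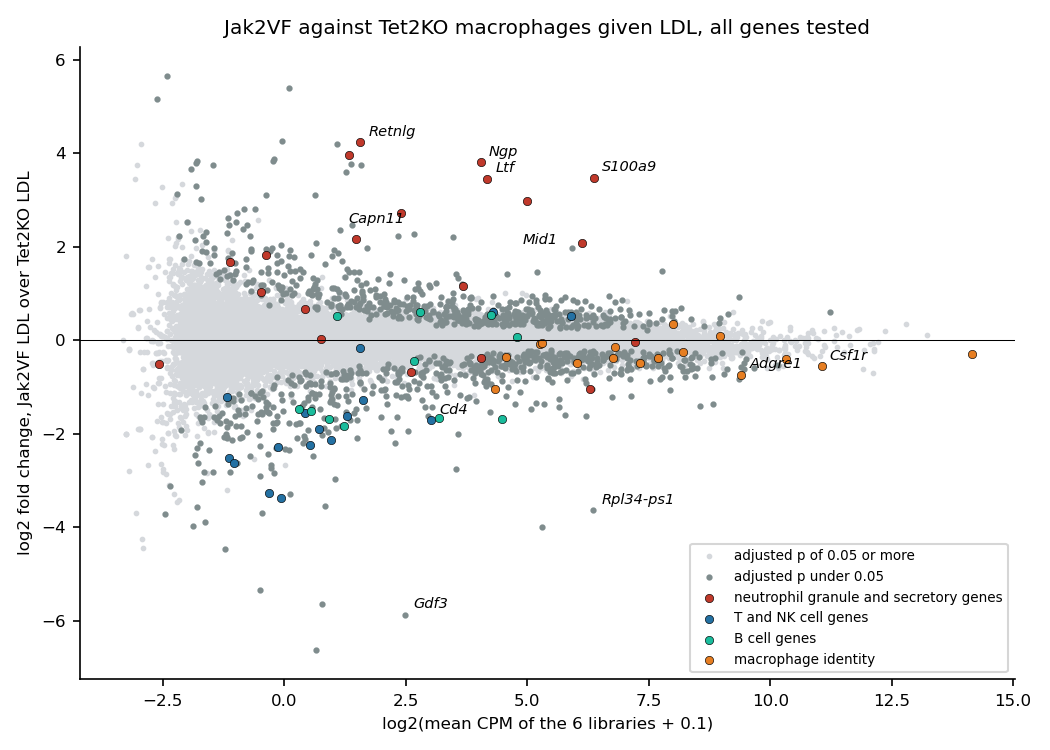
Each point is a gene: its mean level over the 6 LDL libraries (horizontal axis, log2 of CPM plus 0.1) and its log2 fold change, Jak2VF over Tet2KO (vertical axis), with genes at an adjusted p under 0.05 in dark grey. Most neutrophil granule genes (red) lie above 0, with Ngp at 3.81, while most T and NK cell genes (blue) and B cell genes (green) lie below it and Gdf3 stands at -5.87.

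Against WT macrophages given LDL, 1938 genes were called in Jak2VF (9.97%) and 537 in Tet2KO (2.76%). Gdf3, Ltf and Capn11 were named apart from any ranking. Each also fell among the 12 largest rises or falls picked under the rules given below. Gdf3 (chr6:122605403-122610087, GRCm38), which encodes a TGF-beta type ligand made by fat tissue macrophages among other cells, held 0.0819, 0.189 and 0.275 CPM in the 3 Jak2VF libraries and 12.1, 9.52 and 10.9 CPM in the 3 Tet2KO libraries. Every Tet2KO library was far above every Jak2VF library, and the level was 58.6-fold lower in Jak2VF (log2 fold change -5.87 ± 0.21, adjusted p = 1.57e-13). Both genotypes stood away from WT, where Gdf3 held 0.947, 0.909 and 0.721 CPM: it fell in Jak2VF (-2.23 ± 0.27, adjusted p = 2.85e-05) and rose in Tet2KO (3.65 ± 0.17, adjusted p = 7.64e-12). Dnmt3aKO libraries with LDL held 16.2, 17.9 and 15.6 CPM, above the Tet2KO libraries. The other ligands and receptors of the TGF-beta family moved little: of 23 tested, Gdf3 fell, Inhbb, an activin subunit, rose (0.44 ± 0.12, adjusted p = 0.0235), and 21 did not pass. The share called was 8.70%, against 6.10% of all genes, and the list median 0.07. Inhbb kept its call only without Tet2KO library 3 (largest adjusted p = 0.152 with a library left out).

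Ltf (chr9:111019271-111042767) encodes lactoferrin, an iron-binding protein of the secondary granules of neutrophils. It held 30.9, 32.5 and 35.5 CPM in Jak2VF and 3.16, 2.79 and 3.04 CPM in Tet2KO, with no overlap and an 11-fold higher level in Jak2VF (3.46 ± 0.14, adjusted p = 7.85e-13). The WT libraries lay between, at 20.9, 14.5 and 19.7 CPM, so that Ltf was higher in Jak2VF than in WT (0.84 ± 0.12, adjusted p = 0.00021) and lower in Tet2KO than in WT (-2.61 ± 0.14, adjusted p = 8.53e-11). Dnmt3aKO libraries held 37, 37.8 and 37.6 CPM, above the Jak2VF libraries. The same order held for Ngp, S100a9 and Cxcr2, in which the WT libraries lay between the others and the Tet2KO libraries were lowest.

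Capn11 (chr17:45630204-45659325), a calcium-dependent protease best known from testis, held 3.58, 3.72 and 3.35 CPM in Jak2VF and 0.811, 0.726 and 0.494 CPM in Tet2KO. The level was 5.16-fold higher in Jak2VF, with no overlap (2.37 ± 0.33, adjusted p = 7.79e-05). In WT it held 0.139, 0.0276 and 0 CPM and in Dnmt3aKO 0.0418, 0.145 and 0.0279 CPM, near the detection limit, so both Jak2VF and Tet2KO lay above WT (adjusted p = 1.87e-07 and 0.00102). In a separate set of libraries, batch 1 (2 Tet2KO and 2 WT with LDL), it held 2.88 and 0.0411 CPM in Tet2KO and 0 and 0 CPM in WT, so 1 of its Tet2KO libraries lay above both WT libraries and the other was close to them. None of the other 12 calpains and calpastatin that were tested passed, and the list median was 0.02.

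**Figure D2:**
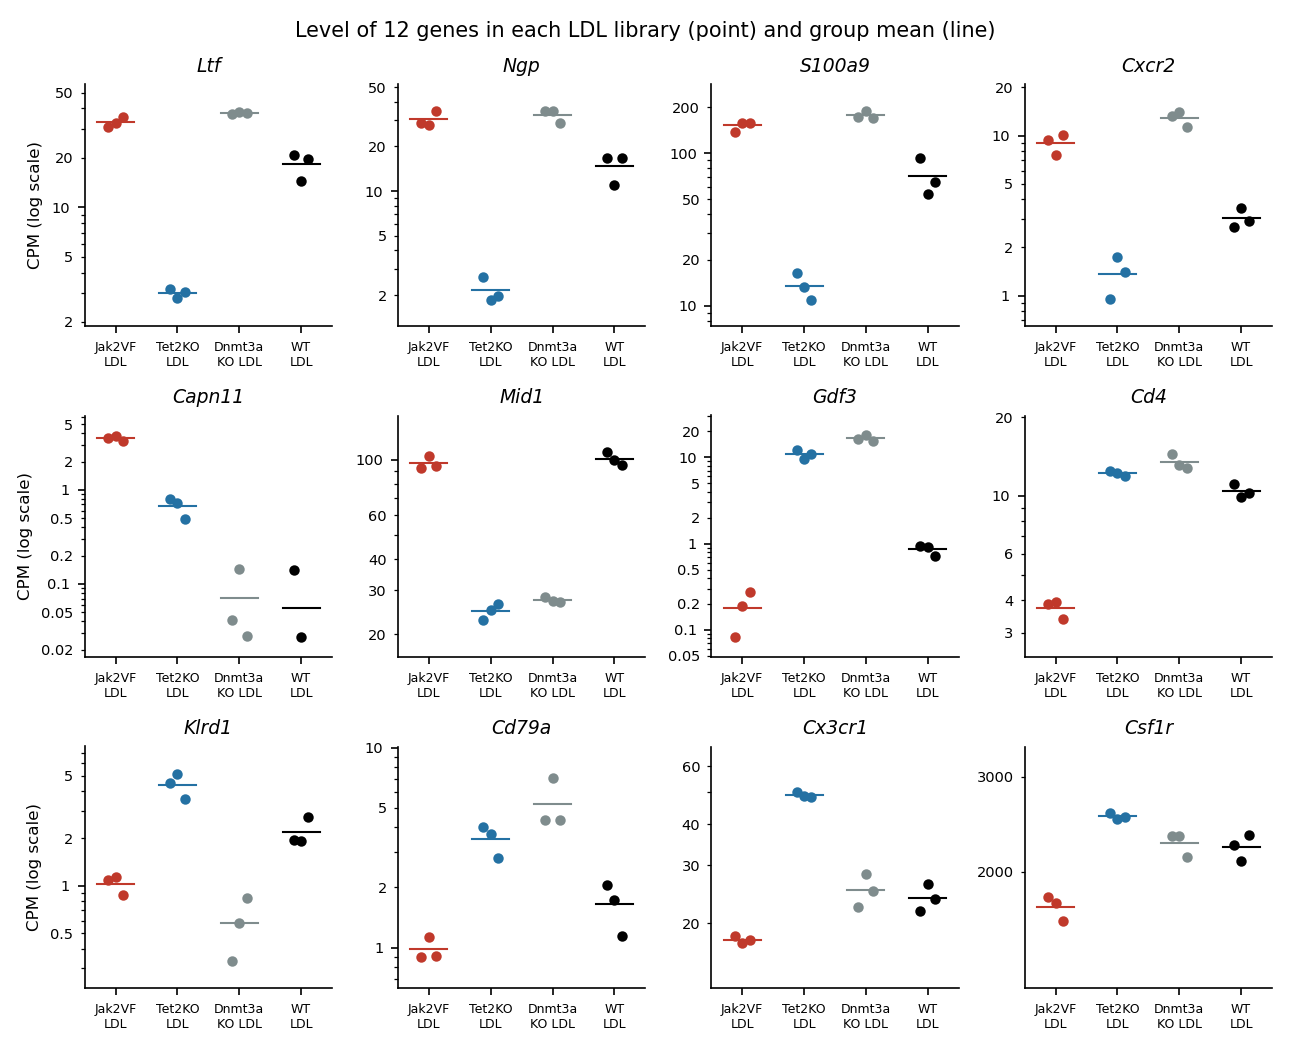
Level of 12 genes in CPM (vertical log axis) in each library given LDL (points) with the group mean (line), for Jak2VF, Tet2KO, Dnmt3aKO and WT from left to right; the 1 WT library with no Capn11 count is not drawn. Jak2VF and Tet2KO libraries do not overlap in any of the 12 genes. For genes taken from the largest rises and falls this was a condition of the choice. Ltf sits at 30.9 to 35.5 CPM in Jak2VF and 2.79 to 3.16 in Tet2KO, and Cd4 at 3.38 to 3.94 in Jak2VF and 11.9 to 12.5 in Tet2KO.

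Genes of neutrophil granules and of the neutrophil surface had the highest median of the gene lists examined. Of 20 such genes, 13 rose in Jak2VF, 3 fell and 4 did not pass, with a median log2 fold change of 1.75 against -0.01 for all genes. The share called was 80%, against 6.10% of all genes. In the cytosol and granules, S100a9, a subunit of the alarmin calprotectin, held 139, 158 and 159 CPM in Jak2VF and 16.4, 13.3 and 11 CPM in Tet2KO (3.48 ± 0.20, adjusted p = 1.83e-10). Its partner S100a8 held 96.5, 129.6 and 110.4 CPM and 34.7, 19.5 and 25.4 CPM in the same order (2.08 ± 0.21, adjusted p = 1.37e-06). In both genes each Jak2VF library lay above each Tet2KO library. Ngp, a secondary granule protein of the cathelicidin family, held 28.9, 28 and 34.6 CPM in Jak2VF and 2.66, 1.86 and 1.98 CPM in Tet2KO (3.81 ± 0.19, adjusted p = 2.48e-11), and Camp, the cathelicidin itself, stood at 2.16 ± 0.28 (adjusted p = 3.49e-05). Chil3, a chitinase-like protein that alternatively activated macrophages also make, held 60.1, 51.7 and 57.9 CPM in Jak2VF and 8.13, 7.32 and 5.82 CPM in Tet2KO (2.99 ± 0.14, adjusted p = 8.49e-12).

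On the cell surface, Cxcr2, the receptor that draws neutrophils to CXC chemokines, held 9.37, 7.54 and 10.1 CPM in Jak2VF and 0.955, 1.74 and 1.41 CPM in Tet2KO (2.72 ± 0.19, adjusted p = 7e-09). Cd177, an adhesion protein of neutrophils, held 3.96, 3.87 and 5.69 CPM in Jak2VF and 0.232, 0.261 and 0.380 CPM in Tet2KO (3.97 ± 0.23, adjusted p = 2.78e-10). Both genes were picked from those whose groups did not overlap. Retnlg, a resistin-like secreted protein of neutrophils, had the highest ratio in the list, with 5.68, 6.20 and 4.31 CPM in Jak2VF and 0.405, 0.261 and 0.152 CPM in Tet2KO (4.24 ± 0.33, adjusted p = 2.09e-08). Among genes of the primary granules of neutrophil precursors, Elane, neutrophil elastase, rose by 1.82 ± 0.30 on the log2 scale (adjusted p = 0.000485) and Ctsg, cathepsin G, by 1.03 ± 0.25 (adjusted p = 0.0155). Mpo, myeloperoxidase, held 1.56, 1.56 and 1.46 CPM in Jak2VF and 0.984, 0.929 and 0.951 CPM in Tet2KO and did not pass (0.67 ± 0.24, adjusted p = 0.116).

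Macrophages also make the 3 members that fell, as they do Chil3 and Lcn2, which rose. Mmp9, a gelatinase that cuts matrix, held 49.6, 53.2 and 49.4 CPM in Jak2VF and 99.6, 106 and 110.1 CPM in Tet2KO (-1.05 ± 0.13, adjusted p = 2.2e-05). Ltb4r1, a leukotriene receptor, stood at -0.68 ± 0.15 (adjusted p = 0.00796) and Csf3r, the G-CSF receptor, at -0.38 ± 0.11 (adjusted p = 0.0335). Mmp8, a collagenase, held 152, 143 and 145 CPM in Jak2VF and 152, 165 and 139 CPM in Tet2KO, which overlap. With 1 library left out, 11 to 13 members of the list were higher and 1 to 3 lower, and with the spread of the 6 libraries alone 10 of 19 were higher and 1 lower. The summed level of the list was 618.9 to 664.9 CPM in Jak2VF and 331.6 to 362.6 CPM in Tet2KO. In such bulk samples, more cells of a type and more RNA per cell cannot be told apart. The part that neutrophils or their precursors in the cultures had in these values was not tested.

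Further genes outside the list had the same pattern. The stefin A genes, inhibitors of cysteine proteases that lie side by side on chromosome 16, were picked with their values known. Of these 7 of 8 rose in Jak2VF, with a median of 3.76, against 2.85% of all genes called higher. Stfa1 held 3.36, 4.62 and 3.60 CPM in Jak2VF and 0.434, 0.116 and 0.0380 CPM in Tet2KO (4.20 ± 0.40, adjusted p = 6.32e-07), and Stfa2l1 held 4.75, 5.02 and 4.15 CPM in Jak2VF and 0.318, 0.261 and 0.456 CPM in Tet2KO (3.77 ± 0.29, adjusted p = 2.64e-08). These genes are near-identical copies, so the split of reads between them is uncertain. Hdc, which makes histamine in basophils, mast cells and some neutrophils, held 10.8, 10.3 and 10.1 CPM in Jak2VF and 2.29, 1.97 and 2.17 CPM in Tet2KO (2.28 ± 0.20, adjusted p = 1.29e-07). Abca13, a large lipid transporter, held 3.03, 1.44 and 3.30 CPM in Jak2VF and 0.289, 0.290 and 0.304 CPM in Tet2KO (3.12 ± 0.46, adjusted p = 0.000126). These 4 genes are among the 12 largest rises, which were taken only from genes whose groups did not overlap.

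Promoters of the granule genes Ltf, Ngp, S100a9 and Camp were taken because the genes moved together. C/EBP factors are also known to drive granule genes during neutrophil maturation. The 3 promoters that held a match to the letters below are shown. Each is the 250 bases before the gene start in RefSeq (GRCm38.p6), 5′ to 3′ along the gene, with matches to TTGCNNAA or its reverse complement TTNNGCAA, letters of a C/EBP type of site, in capitals. Ltf is at chr9:111019042-111019291 on the plus strand, Ngp at chr9:110419558-110419807 on the plus strand and S100a9 at chr3:90695722-90695971 on the minus strand.
Ltf: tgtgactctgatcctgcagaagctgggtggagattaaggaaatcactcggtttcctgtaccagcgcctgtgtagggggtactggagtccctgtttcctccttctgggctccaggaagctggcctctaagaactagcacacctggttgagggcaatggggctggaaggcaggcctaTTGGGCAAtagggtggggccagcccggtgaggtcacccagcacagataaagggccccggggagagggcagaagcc
Ngp: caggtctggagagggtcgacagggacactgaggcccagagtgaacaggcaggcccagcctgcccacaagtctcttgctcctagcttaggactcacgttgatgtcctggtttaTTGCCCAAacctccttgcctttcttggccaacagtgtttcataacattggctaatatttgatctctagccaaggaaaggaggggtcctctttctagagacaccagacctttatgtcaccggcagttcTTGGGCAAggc
S100a9: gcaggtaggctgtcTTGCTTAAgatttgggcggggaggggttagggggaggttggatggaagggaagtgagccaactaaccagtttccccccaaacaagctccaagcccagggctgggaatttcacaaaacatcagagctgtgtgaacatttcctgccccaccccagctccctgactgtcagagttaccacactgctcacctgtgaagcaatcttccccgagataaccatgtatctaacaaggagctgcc
Counted from the gene start, the match began at -75 in Ltf, at -138 and -11 in Ngp and at -236 in S100a9. The Camp window, which is not shown, held none. Of the 13 granule genes that rose, 6 held such a match (46.2%), against 10.8% of all 27025 promoters of that length. Of the tested genes with a promoter in the table it was 1146 of 12068 (9.50%), with 49 of 378 that rose (13%) and 62 of 444 that fell (14.0%). STAT type letters (TTCNNNGAA, which is its own reverse complement) were found in 2 of the 13 (15.4%) and in 8.13% of all promoters. Of the tested genes with a promoter it was 880 of 12068 (7.29%), with 27 of the 378 that rose (7.14%) and 57 of the 444 that fell (12.8%). STAT type letters were in 2 of the 8 promoters of T and NK cell genes that fell (25%). The 13 genes come from a list drawn up with earlier results known, and the C/EBP letters were chosen for their known role in such genes. Their share is therefore not a test. These matches are letters in a window, and no binding was measured.

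Lymphocyte genes went the other way. Of 16 T and NK cell genes, 12 fell in Jak2VF, 2 rose and 2 did not pass (87.5% called, against 6.10% of all genes). The median was -1.80, and the same counts were found with any 1 library left out. From the 6 libraries alone 10 fell and 0 rose. Of 11 B cell genes, 6 fell, 2 rose and 3 did not pass (72.7% called), with a median of -1.46. From the 6 libraries alone 5 B cell genes fell and 0 rose. Among T cell genes, Cd3g and Cd3d, chains of the T cell receptor complex, stood at -3.37 ± 0.39 (adjusted p = 7.17e-06) and -3.27 ± 0.48 (adjusted p = 0.000126). Their levels were low: Cd3g held 0.164, 0.141 and 0.137 CPM in Jak2VF and 2.00, 1.54 and 1.10 CPM in Tet2KO. Trbc2, a constant region of the receptor, held 0.464, 0.448 and 0.495 CPM in Jak2VF and 2.61, 2.67 and 1.37 CPM in Tet2KO (-2.25 ± 0.34, adjusted p = 0.000158). It was picked from genes whose groups did not overlap. Trbc1 stood at -2.13 ± 0.40 (adjusted p = 0.0017), but was not called from the 6 libraries alone.

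Cd4 encodes a T cell co-receptor that macrophages of human and rat also express. It held 3.85, 3.94 and 3.38 CPM in Jak2VF and 12.5, 12.2 and 11.9 CPM in Tet2KO (-1.71 ± 0.09, adjusted p = 7.64e-11), with WT at 11.1, 9.87 and 10.2 CPM. Cd4 was lower in Jak2VF than in WT (-1.48 ± 0.09, adjusted p = 1.46e-09) and did not pass between Tet2KO and WT (0.23 ± 0.09, adjusted p = 0.226). Lck, the kinase bound to CD4 and CD8, fell by the smallest amount of the 12 called (-1.28 ± 0.18, adjusted p = 0.000103). Il7r and Thy1, which stromal and precursor cells also express, were the 2 that rose (0.51 ± 0.11 and 0.60 ± 0.12, adjusted p = 0.00752 and 0.00404). They were the most abundant of the list, so its summed level was 101.7 to 111.5 CPM in Jak2VF and 86.3 to 112.7 CPM in Tet2KO.

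Receptors of NK cells and GTPases of lymphocytes showed the same direction, in families chosen after their values were seen. Of 22 lectin-like receptor genes of the Klr family 14 fell and 0 rose (median -1.97). Of 8 Gimap genes, which set the survival of lymphocytes, 7 fell and 0 rose (median -1.74). Of all genes 3.25% were called lower. Klrd1, the CD94 chain of NK receptors, held 1.09, 1.13 and 0.879 CPM in Jak2VF and 4.49, 5.14 and 3.54 CPM in Tet2KO (-2.08 ± 0.26, adjusted p = 1.79e-05). Its partner chain Klrc1 stood at -1.97 ± 0.29 (adjusted p = 0.000136) and the inhibitory receptor Klri2 at -2.11 ± 0.40 (adjusted p = 0.00184), although Klri2 was not called from the 6 libraries alone. Gimap4 held 1.97, 2.45 and 2.67 CPM in Jak2VF and 9.23, 10.3 and 7.72 CPM in Tet2KO (-1.95 ± 0.14, adjusted p = 8.09e-09), and Gimap3 1.53, 1.39 and 2.17 CPM in Jak2VF and 7.44, 9.58 and 6.35 CPM in Tet2KO (-2.21 ± 0.21, adjusted p = 4.84e-07). Klrd1, Gimap4 and Gimap3 are among the largest falls, which were taken only from genes whose groups did not overlap. In these genes the WT libraries lay between the groups, at 1.93 to 2.75, 4.54 to 4.79 and 4.22 to 4.62 CPM. Copies within both families are similar, so the split of reads between members is uncertain.

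Sh2d2a, a T cell adaptor, held 0.792, 0.589 and 0.522 CPM in Jak2VF and 2.72, 2.79 and 2.21 CPM in Tet2KO (-2.02 ± 0.23, adjusted p = 5.23e-06). Ms4a4c, a membrane protein of the CD20 family found on monocytes and lymphocytes, held 5.84, 4.20 and 4.04 CPM in Jak2VF and 22, 17.2 and 17.5 CPM in Tet2KO (-2.01 ± 0.32, adjusted p = 0.000299). Of 7 tested Ms4a4 and Ms4a6 genes 5 fell, against 3.25% of all genes called lower. Sh2d2a and Ms4a4c are among the largest falls, which were taken only from genes whose groups did not overlap.

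Among B cell genes, Cd79a, a signalling chain of the B cell receptor, held 0.901, 1.13 and 0.907 CPM in Jak2VF and 4.02, 3.69 and 2.81 CPM in Tet2KO (-1.84 ± 0.27, adjusted p = 0.00015), and the IgM heavy chain gene Ighm held 9.01, 11 and 11.5 CPM in Jak2VF and 44.8, 31.3 and 25.1 CPM in Tet2KO (-1.69 ± 0.19, adjusted p = 6.16e-06). Neither gene overlapped between the groups, and the WT libraries lay between them, at 1.15 to 2.06 and 15 to 21.4 CPM. The transcription factor Ebf1 and the receptor Cd22 rose (0.55 ± 0.15 and 0.61 ± 0.10, adjusted p = 0.0337 and 0.000626). Immunoglobulin genes taken as a family, which holds Ighm, were split: of 122 tested 9 rose, 10 fell and 103 did not pass (median -0.44). The Ly6 family was split too, with 2 of 9 tested genes higher, 3 lower and 4 not passing (median -0.51). Both families were picked with their values known, and 6.10% of all genes were called. The summed level of B cell genes was 82.2 to 86.3 CPM in Jak2VF and 95.4 to 135.7 CPM in Tet2KO. The part that lymphocytes carried over from the marrow had in these values was not tested.

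Macrophage and monocyte genes were lower in Jak2VF where they changed, with 3 monocyte genes as the exception. Of 16 macrophage identity genes 6 fell, 0 rose and 10 did not pass (37.5% called, against 6.10% of all genes, median -0.37). With 1 library left out, 4 to 7 fell. Csf1r, the M-CSF receptor on which these cells depend, held 1795, 1754 and 1621 CPM in Jak2VF and 2566, 2505 and 2530.3 CPM in Tet2KO (-0.56 ± 0.07, adjusted p = 2.16e-05). Adgre1, the F4/80 antigen, held 532, 495 and 492 CPM in Jak2VF and 825, 848 and 857 CPM in Tet2KO (-0.74 ± 0.07, adjusted p = 2.29e-07). Both groups were tight and apart in each gene, and both genes were lower in Jak2VF than in WT (-0.37 ± 0.07 and -0.62 ± 0.07, adjusted p = 0.00211 and 7.52e-06). The transcription factors Irf8 and Maf fell as well (-0.49 ± 0.09 and -0.39 ± 0.08, adjusted p = 0.00192 and 0.00275).

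Of 15 resident macrophage genes 4 fell and 0 rose (26.7% called, against 6.10% of all genes, median -0.21), among them Maf, which stands in both lists. Stab1, a scavenger receptor, held 559, 532 and 565 CPM in Jak2VF and 754, 901 and 891 CPM in Tet2KO (-0.62 ± 0.12, adjusted p = 0.00297), and Sepp1, selenoprotein P, held 408, 400.1 and 386 CPM in Jak2VF and 777, 650.0 and 551 CPM in Tet2KO (-0.73 ± 0.11, adjusted p = 0.000183). Neither gene overlapped between the groups. Lyz2 did not pass (-0.29 ± 0.14, adjusted p = 0.322) and its groups overlapped.

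Of 16 monocyte genes 5 fell, 3 rose and 8 did not pass (50% called, against 6.10% of all genes, median -0.11). The counts were the same when any 1 library was left out. Cx3cr1, the fractalkine receptor of patrolling monocytes, held 18.3, 17.4 and 17.8 CPM in Jak2VF and 50.3, 48.9 and 48.4 CPM in Tet2KO (-1.46 ± 0.09, adjusted p = 2.78e-10). Ccr2, the receptor by which inflammatory monocytes leave the marrow, held 72.1, 54 and 67.7 CPM in Jak2VF and 140.5, 193 and 119 CPM in Tet2KO (-1.22 ± 0.17, adjusted p = 5.38e-05). In WT, Cx3cr1 held 21.8, 26.3 and 23.6 CPM: it rose in Tet2KO against WT (1.04 ± 0.08, adjusted p = 8.01e-08) and fell in Jak2VF against WT (-0.42 ± 0.09, adjusted p = 0.00358). Spn, leukosialin, and Itgal, the alpha chain of the integrin LFA-1, fell to a similar extent (-0.85 ± 0.09 and -0.84 ± 0.11, adjusted p = 2.13e-06 and 3.12e-05). Neither passed between Jak2VF and WT (-0.05 ± 0.09 and -0.01 ± 0.11, adjusted p = 0.741 and 0.953). Ly6c1, a surface antigen, and Nr4a1, a nuclear receptor of patrolling monocytes, were among the genes that rose (0.71 ± 0.14 and 0.52 ± 0.10, adjusted p = 0.00279 and 0.0014).

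Among cytokine receptors, Jak kinases and STATs, the nearest genes to the mutated kinase in function, 9 of 28 fell, 1 rose and 18 did not pass. The share called was 35.7%, against 6.10% of all genes, and the median -0.20. Ifngr1, the ligand-binding chain of the interferon gamma receptor, held 196, 213 and 189 CPM in Jak2VF and 305, 288 and 268 CPM in Tet2KO (-0.53 ± 0.09, adjusted p = 0.000592). Csf2rb, the chain shared by the receptors for GM-CSF, IL-3 and IL-5, held 419.8, 408 and 389.6 CPM in Jak2VF and 525, 541 and 528 CPM in Tet2KO (-0.39 ± 0.08, adjusted p = 0.00275). Il10ra, of the IL-10 receptor, stood at -0.42 ± 0.07 (adjusted p = 0.000354), Jak3 at -0.46 ± 0.11 (adjusted p = 0.0105) and Stat4 at -0.90 ± 0.14 (adjusted p = 0.000208). Each of these 5 was lower in every Jak2VF library.

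Of 19 targets of STAT5 and feedback inhibitors of cytokine signalling, 1 rose, 2 fell and 16 did not pass (15.8% called, against 6.10% of all genes, median -0.14). Pim2, a survival kinase, held 4.70, 4.41 and 4.20 CPM in Jak2VF and 9.70, 6.36 and 8.40 CPM in Tet2KO (-0.88 ± 0.15, adjusted p = 0.000549), and Osm, a cytokine of the IL-6 family, held 7.56, 8.11 and 7.53 CPM in Jak2VF and 11.3, 13 and 11.7 CPM in Tet2KO (-0.63 ± 0.10, adjusted p = 0.000291). Socs2 rose (0.35 ± 0.09, adjusted p = 0.0237), a call that held only without Tet2KO library 1 (largest adjusted p = 0.0935 without another library). Cish, the classic STAT5 target, held 1.47, 1.89 and 1.24 CPM in Jak2VF and 1.85, 1.42 and 2.36 CPM in Tet2KO, which overlap, and Pim1 did not pass either (-0.14 ± 0.09, adjusted p = 0.461).

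Inflammatory genes were split. Il1b, the precursor of interleukin 1 beta, held 294, 266 and 201 CPM in Jak2VF and 822, 574 and 568 CPM in Tet2KO (-1.37 ± 0.28, adjusted p = 0.00363), while Il1rn, the antagonist of its receptor, held 75.8, 78.8 and 83.2 CPM in Jak2VF and 46.5, 39.5 and 45.6 CPM in Tet2KO (0.85 ± 0.09, adjusted p = 1.72e-06). Neither gene overlapped, and both stayed called with any library left out. Against WT, Il1b rose in Tet2KO (1.20 ± 0.28, adjusted p = 0.0178) and did not pass in Jak2VF (-0.16 ± 0.28, adjusted p = 0.711), where WT held 408, 209 and 237 CPM. Il1rn fell in Tet2KO (-0.72 ± 0.09, adjusted p = 2.32e-05). Il6 held 74.4, 64.5 and 69.2 CPM in Jak2VF and 47.1, 42 and 46.8 CPM in Tet2KO (0.61 ± 0.18, adjusted p = 0.0489) and lost its call whichever library was left out (largest adjusted p = 0.166). In the list of 19 inflammatory and NF-kB genes 2 rose, 2 fell and 15 did not pass (21.1% called, against 6.10% of all genes, median -0.28).

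Of 18 inflammasome and pyroptosis genes 3 fell and 0 rose (16.7% called, against 6.10% of all genes, median -0.35). Of 19 chemokines 3 fell and 0 rose (15.8% called, median -0.54). Cxcl3, a neutrophil attractant, held 246, 219 and 203 CPM in Jak2VF and 403, 349 and 408 CPM in Tet2KO (-0.80 ± 0.18, adjusted p = 0.00713). The chemokine calls were 0 to 3 with a library left out, and none stayed without Jak2VF library 3, where Cxcl3 reached an adjusted p of 0.0521. Gsdme, which makes a pore-forming protein and stands in the files as Dfna5, kept its call with every library left out (-0.59 ± 0.09, adjusted p = 0.000236).

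Genes of antigen presentation and interferon response had medians below 0. Of 19 genes of MHC class II and dendritic cells 6 fell and 0 rose (31.6% called, median -0.75), of 21 genes of MHC class I and interferon gamma response 4 fell and 0 rose (19% called, median -0.48), against 3.25% of all genes called lower, and of 25 type I interferon genes 0 were called in either direction (median -0.40). H2-Ob, a chain that tunes peptide loading in B cells, held 0.710, 1.27 and 1.10 CPM in Jak2VF and 2.84, 2.64 and 2.28 CPM in Tet2KO (-1.33 ± 0.20, adjusted p = 0.000216). H2-Eb1, a class II chain, held 2.32, 2.95 and 2.31 CPM in Jak2VF and 7.47, 4.99 and 4.98 CPM in Tet2KO (-1.20 ± 0.26, adjusted p = 0.00524). Ccr7, which guides dendritic cells to lymph nodes, stood at -1.28 ± 0.29 (adjusted p = 0.00953), a call lost without Tet2KO library 1 or Jak2VF library 1 (largest adjusted p = 0.105). H2-K1, a class I heavy chain, held 460.4, 547 and 417 CPM in Jak2VF and 1036, 684 and 795 CPM in Tet2KO (-0.82 ± 0.21, adjusted p = 0.0227). Tap1, the peptide transporter of class I presentation, held 24.4, 23.6 and 22.1 CPM in Jak2VF and 39.1, 34.5 and 37 CPM in Tet2KO (-0.66 ± 0.16, adjusted p = 0.0157). H2-Ob, H2-Eb1, H2-K1 and Tap1 did not overlap between the groups, yet the counts rested on single libraries. Without Tet2KO library 1, 1 class II gene and 0 class I genes were called, and without Jak2VF library 3 it was 3 and 0. H2-Ob kept its call with every library left out, H2-Eb1 lost it without Tet2KO library 1 (adjusted p = 0.0509) and Tap1 without Tet2KO library 1 or Jak2VF library 3 (largest adjusted p = 0.0812). H2-K1 kept its call in 3 of 6 such fits (largest adjusted p = 0.145).

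Genes of cholesterol and lipid handling were counted in 3 lists. Of 25 genes of cholesterol synthesis and uptake 2 rose and 0 fell (8% called, against 6.10% of all genes, median 0.10). Cyp51, a sterol demethylase, held 25.2, 25.8 and 24.7 CPM in Jak2VF and 20.8, 19.2 and 20.8 CPM in Tet2KO (0.32 ± 0.08, adjusted p = 0.0204), and Idi1 held 18.5, 15.8 and 17.9 CPM in Jak2VF and 13.9, 14.1 and 14.1 CPM in Tet2KO (0.31 ± 0.09, adjusted p = 0.0359). Cyp51 kept its call only without Tet2KO library 1 or 3 (largest adjusted p = 0.0751 without another library) and Idi1 only without Jak2VF library 2 (largest adjusted p = 0.168). Of 19 LXR targets and efflux genes 1 rose and 2 fell (15.8%, median -0.09): Pltp, which moves phospholipid between lipoproteins, held 73.9, 84.1 and 64.4 CPM in Jak2VF and 153, 108 and 129 CPM in Tet2KO (-0.81 ± 0.15, adjusted p = 0.00136), and the fatty acid desaturase gene Scd1 rose (0.57 ± 0.13, adjusted p = 0.00776) except without Tet2KO library 1 (adjusted p = 0.0632). Of 19 genes of lipid uptake and storage 2 fell (10.5%, median -0.04), the nuclear receptor Pparg (-0.63 ± 0.14, adjusted p = 0.00906) and the fatty acid carrier Fabp4 (-0.55 ± 0.13, adjusted p = 0.00894). Fabp4 lost its call without Tet2KO library 1 or Jak2VF library 3 (largest adjusted p = 0.0739), and neither gene was called from the 6 libraries alone. Of 16 NRF2 targets 1 rose and 2 fell (18.8%, median -0.14), with Gsta3, a glutathione transferase, at 2.40, 4.05 and 3.55 CPM in Jak2VF and 9.03, 6.62 and 7.19 CPM in Tet2KO (-1.19 ± 0.24, adjusted p = 0.00363).

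Of 27 cell cycle genes 6 rose, 0 fell and 21 did not pass (22.2% called, against 6.10% of all genes, median 0.25). The mitotic cyclin Ccnb1 was among those that rose (72.2, 70.9 and 76.8 CPM in Jak2VF and 46.4, 45.7 and 62.6 CPM in Tet2KO, 0.51 ± 0.11, adjusted p = 0.00744). No member was called without Tet2KO library 1, where Ccnb1 reached an adjusted p of 0.0548, or from the 6 libraries alone. Of 18 stromal and matrix genes 6 rose and 0 fell (33.3% called, median 0.30). Col3a1, a collagen chain, held 2831, 2903 and 2879.8 CPM in Jak2VF and 1616, 2274 and 1815 CPM in Tet2KO (0.59 ± 0.14, adjusted p = 0.00986). Pdgfrb, a growth factor receptor of mesenchymal cells, stood at 0.55 ± 0.12 (adjusted p = 0.00399) and held with every library left out, but none of the 18 was called from the 6 libraries alone. Without Tet2KO library 1, 2 stromal genes were called, and Col3a1 was not (adjusted p = 0.0738). The summed level of the stromal list was 18485 to 19738 CPM in Jak2VF and 14024 to 16857 CPM in Tet2KO. Of 20 imprinted genes 4 rose and 0 fell (20% called, median 0.28). Rian, a noncoding RNA of the Dlk1 region, held 48.6, 38.9 and 51.5 CPM in Jak2VF and 19.1, 31.5 and 25.8 CPM in Tet2KO (0.86 ± 0.16, adjusted p = 0.00156), with call and direction kept whichever library was left out, but no imprinted gene was called from the 6 libraries alone. Its neighbour Meg3, the growth factor gene Igf2 and the zinc finger gene Plagl1 rose too (0.94 ± 0.25, 0.63 ± 0.17 and 0.66 ± 0.17), but lost their calls without Jak2VF library 3 or Tet2KO library 1, among others (adjusted p up to 0.157, 0.137 and 0.179 with a library left out). The part of stromal cells in the cell cycle and imprinted values was not tested.

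In blood lineages driven by JAK2, 5 of 15 megakaryocyte and platelet genes were called (33.3%, against 6.10% of all genes), 4 higher and 1 lower (median 0.44), but 0 to 2 were called higher with a library left out and none was called from the 6 libraries alone. Of 10 erythroid genes 1 rose and 1 fell (20% called, median 0.44): Car2, a carbonic anhydrase, held 5.76, 5.37 and 4.62 CPM in Jak2VF and 9.23, 10.02 and 7.76 CPM in Tet2KO (-0.78 ± 0.17, adjusted p = 0.00487). Of 8 mast cell and basophil genes 2 rose and 1 fell (37.5% called): Hdc and Prss34, a basophil protease, rose, and Kit, the stem cell factor receptor, held 3.96, 3.28 and 3.00 CPM in Jak2VF and 6.75, 8.59 and 8.21 CPM in Tet2KO (-1.20 ± 0.19, adjusted p = 0.000248). Kit did not overlap between the groups. Among matrix metalloproteinases and the plasminogen system 3 of 21 rose and 1, Mmp9, fell (19% called, against 6.10% of all genes). Plat, tissue plasminogen activator, held 65.4, 69 and 64.1 CPM in Jak2VF and 38, 41.8 and 50.1 CPM in Tet2KO (0.61 ± 0.10, adjusted p = 0.000421), and Timp2, a metalloproteinase inhibitor, held 370.3, 399 and 382 CPM in Jak2VF and 279.6, 258 and 301 CPM in Tet2KO (0.46 ± 0.07, adjusted p = 0.000373). Of 20 genes of the DNA methylation and hydroxymethylation machinery, 1 fell, Idh1, and 0 rose (5% called, below the 6.10% of all genes, median 0.02).

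Among stress programs, of 19 hypoxia and glycolysis genes 3 fell and 0 rose (15.8% called, against 6.10% of all genes, median -0.25). Of 17 genes of ER stress and the amino acid response 2 fell (11.8%, median -0.11), and of 20 p53 targets 2 fell (10%, median 0.00). From the 6 libraries alone no member of these 3 lists was called. Among the p53 targets, Fas, a death receptor, at 15, 15.5 and 13.9 CPM in Jak2VF and 27.9, 20.01 and 21 CPM in Tet2KO (-0.64 ± 0.13, adjusted p = 0.00441), with no overlap. Of 13 genes of alternative activation 2 rose (15.4%), Chil3 and Socs2, which other lists hold too. Of 7 germline genes 1 fell (14.3%), of 13 brain genes 1 rose and 1 fell (15.4% called), and of the 5 sex-linked genes listed 0 were called. Of all 14 tested genes on the Y chromosome 4 were called (28.6%).

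**Figure D3:**
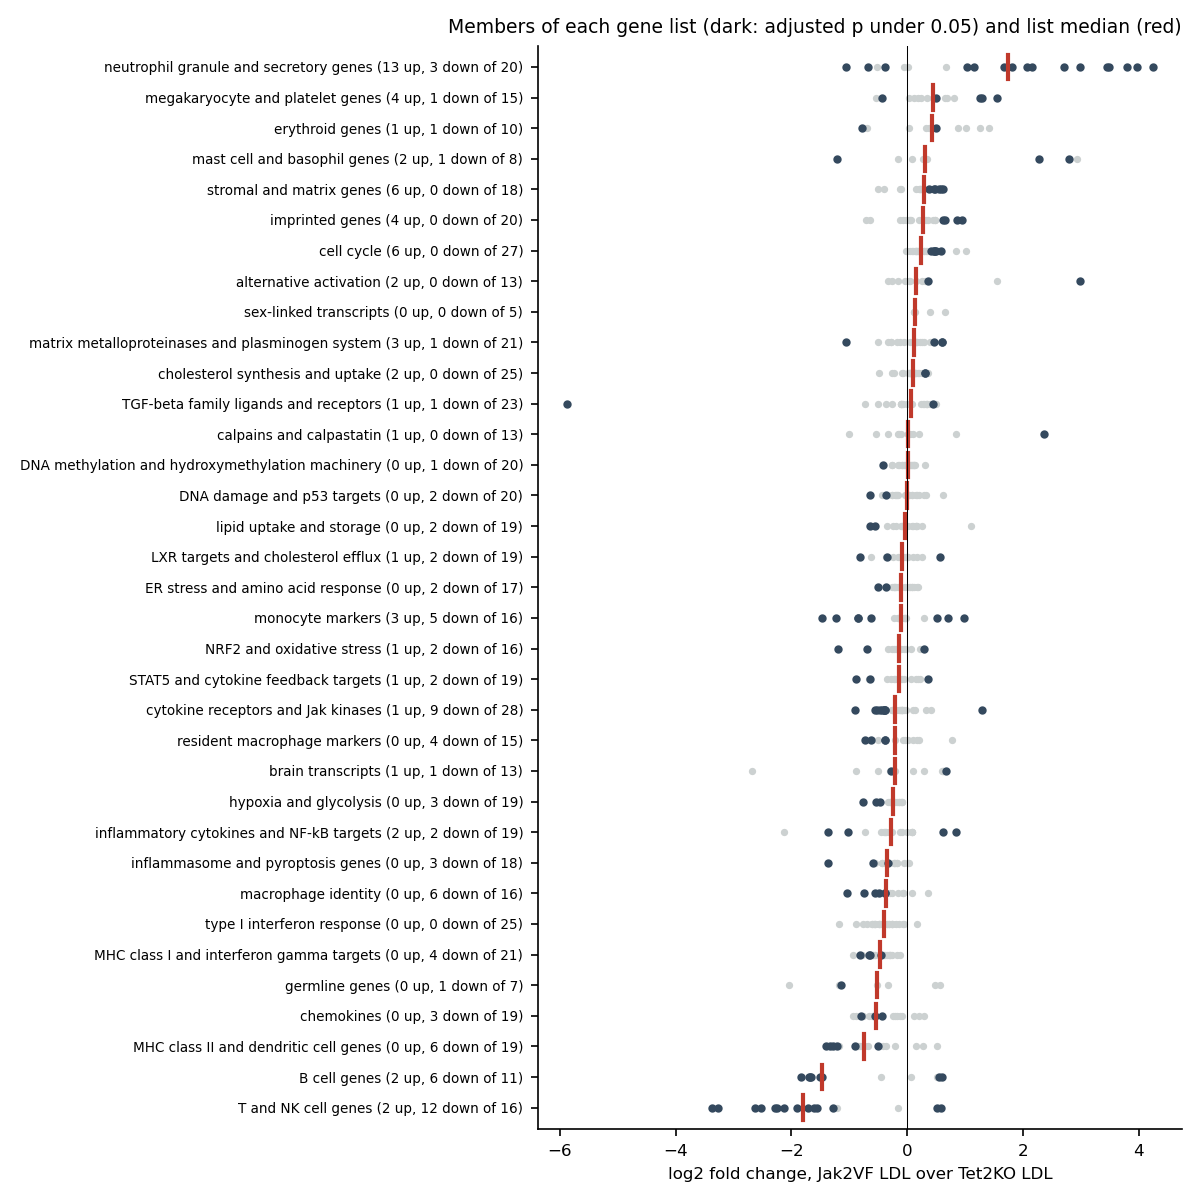
Log2 fold change of each tested member of the gene lists (points; dark where the adjusted p is under 0.05), Jak2VF over Tet2KO, with the list median in red and the counts in the row label. The neutrophil list stands at the top with a median of 1.75 and the B cell and T and NK cell lists at the bottom with -1.46 and -1.80.

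Some of the clearest differences fell in no list, and were chosen after their values were seen. Mid1, a ubiquitin ligase bound to microtubules, on the X chromosome, held 92.6, 103 and 94 CPM in Jak2VF and 22.7, 24.9 and 26.4 CPM in Tet2KO (1.97 ± 0.08, adjusted p = 2.88e-13). The Jak2VF libraries overlapped the WT libraries, which held 107, 99.2 and 95.1 CPM (-0.06 ± 0.07, adjusted p = 0.614), while the Dnmt3aKO libraries, at 28.2, 27.1 and 27 CPM, were close to Tet2KO. In batch 1 Mid1 held 41.8 and 12.2 CPM in Tet2KO and 12.1 and 9.78 CPM in WT, so the deficit against WT was not seen there (1.32 ± 0.63, adjusted p = 0.441). Nectin3, a cell adhesion protein, had the opposite layout: it held 53.9, 52.4 and 56.1 CPM in Jak2VF and 19.8, 20.6 and 18.1 CPM in Tet2KO (1.47 ± 0.09, adjusted p = 5.55e-10), with WT at 18.3, 18.5 and 16.8 CPM. It was higher in Jak2VF than in WT (1.60 ± 0.09, adjusted p = 2.86e-10) and did not pass in Tet2KO (0.13 ± 0.09, adjusted p = 0.606).

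The other Tet2KO differences were set beside batch 1 too, where 83 of 15481 genes (0.536%) were called between Tet2KO and WT with LDL. Gdf3 held 51.1 and 30.7 CPM in its Tet2KO libraries and 3.86 and 19 CPM in its WT libraries, which do not overlap but did not pass (1.78 ± 0.89, adjusted p = 0.462). With single libraries left out, 8 to 38 genes were called in that set. Ltf held 10.1 and 2.42 CPM in Tet2KO and 14.2 and 23.4 CPM in WT (-1.59 ± 0.70, adjusted p = 0.418), and Cd4 held 12.7 and 17.6 CPM in Tet2KO and 4.07 and 4.99 CPM in WT (1.73 ± 0.29, adjusted p = 0.0406). Mmp9 held 29.9 and 31.7 CPM in Tet2KO and 13.7 and 15 CPM in WT (1.10 ± 0.17, adjusted p = 0.0284). Levels of the 2 sets were scaled apart and are not compared with each other.

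Rpl34-ps1 and Rpl34-ps2, listed as pseudogenes of a ribosomal protein gene, were among the largest falls. Rpl34-ps1 held 16.7, 11 and 8.77 CPM in Jak2VF and 232, 123 and 99.96 CPM in Tet2KO (-3.64 ± 0.58, adjusted p = 0.000315), and Rpl34-ps2 held 0.164, 0.212 and 0.412 CPM in Jak2VF and 3.76, 2.09 and 3.50 CPM in Tet2KO (-3.56 ± 0.32, adjusted p = 2.22e-07). In batch 1 both were also higher in Tet2KO than in WT: Rpl34-ps2 held 31.7 and 33 CPM in Tet2KO and 0.621 and 0.225 CPM in WT (6.54 ± 0.53, adjusted p = 0.00287). Rpl34 itself, which lies on chromosome 3 within 10 Mb of Tet2, held 199.6, 287 and 212 CPM in Jak2VF and 203, 141 and 269.6 CPM in Tet2KO and did not pass (0.19 ± 0.21, adjusted p = 0.717). Reads of such near-identical copies can be counted for either, so the values of the pseudogenes are uncertain.

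Genes near the targeted loci were counted against the 6.10% called of all genes, without a test of the difference. Within 10 Mb of the start of Tet2 (chromosome 3, GRCm38), 13 of 107 tested genes were called (12.1%), 7 higher and 6 lower in Jak2VF. Within 10 Mb of Jak2 it was 12 of 123 (9.76%), and around Dnmt3a, which was altered in neither group, 2 of 69 (2.90%). Alpk1, a kinase that senses a bacterial sugar and lies 5.79 Mb from Tet2, held 30.6, 22.9 and 27.7 CPM in Jak2VF and 64.8, 107 and 74.3 CPM in Tet2KO (-1.60 ± 0.19, adjusted p = 9.73e-06). Its WT libraries held 20.4, 28.5 and 21.1 CPM, which overlap the Jak2VF libraries, and in batch 1 it held 64.5 and 54 CPM in Tet2KO and 17.8 and 30.5 CPM in WT. Tifa, an adaptor that acts after ALPK1 and lies beside it, held 33.2, 34 and 34 CPM in Jak2VF and 51.4, 55.7 and 45.8 CPM in Tet2KO (-0.60 ± 0.08, adjusted p = 7.12e-05). Against WT, Tifa fell in Jak2VF (-0.43 ± 0.08, adjusted p = 0.00287) and did not pass in Tet2KO (0.17 ± 0.08, adjusted p = 0.415). Npnt, a matrix protein gene within 1 Mb of Tet2, was also lower in Jak2VF (-0.70 ± 0.13, adjusted p = 0.0018), while Ppa2, Ints12 and Gstcd, which lie nearer to Tet2, did not pass. Sequence carried along with the targeted alleles from the donor strain was not tested.

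**Figure D4:**
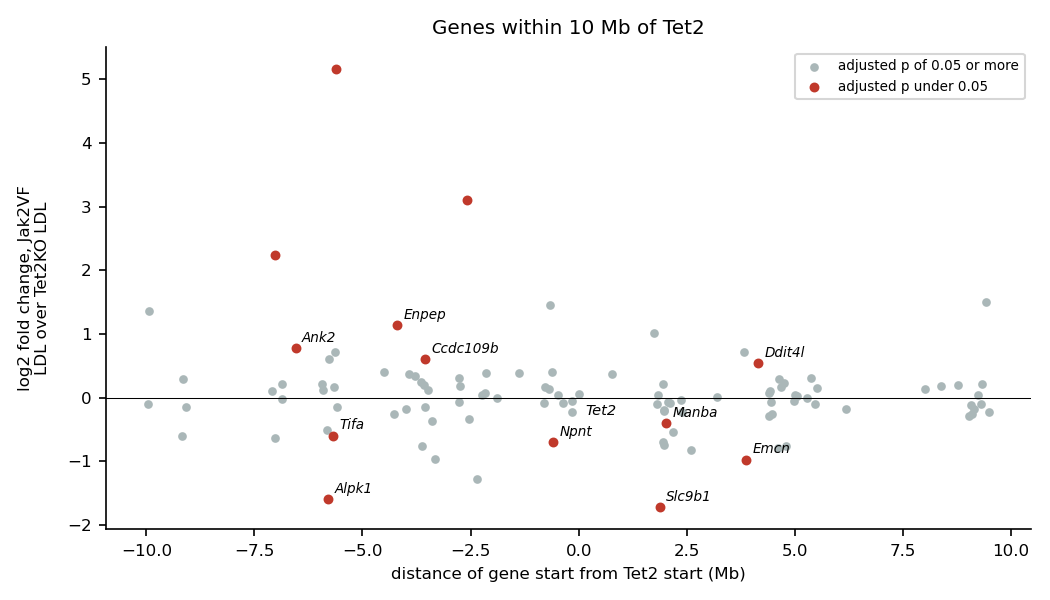
Log2 fold change of the 107 tested genes within 10 Mb of Tet2, Jak2VF over Tet2KO, against the distance of the gene start from that of Tet2. The 13 genes at an adjusted p under 0.05 are red; those without a predicted-gene name are labelled, and Alpk1 at -1.60 and Tifa at -0.60 lie side by side.

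The same genotype contrast was made in the vehicle libraries. With vehicle 3010 genes were called (15.5%), 1397 higher in Jak2VF (7.18%) and 1613 lower (8.30%). That count was uneven too: it was 1296 without Jak2VF vehicle library 1, 1388 and 1650 without Tet2KO vehicle library 1 or 2, 1521 without Jak2VF vehicle library 2 and 5523 without Jak2VF vehicle library 3. With both treatments 731 genes were called, which is 61.6% of the LDL calls and 24.3% of the vehicle calls. All 731 had the same sign. Of the 1187 LDL calls 1135 (95.6%) had the same sign with vehicle, against 49.4% of all genes. In the vehicle libraries Gdf3 held 0.411, 0.375 and 0.271 CPM in Jak2VF and 12.4, 12.7 and 13.3 CPM in Tet2KO (-5.15 ± 0.19, adjusted p = 1.26e-13), and Capn11 held 4.13, 4.93 and 4.26 CPM in Jak2VF and 0.827, 0.952 and 0.876 CPM in Tet2KO (2.33 ± 0.32, adjusted p = 4.63e-05). Ltf held 74.6, 83 and 69.3 CPM in Jak2VF and 4.13, 4.88 and 3.97 CPM in Tet2KO (4.13 ± 0.14, adjusted p = 5.81e-14). The 20 neutrophil genes had 14 rises and 1 fall with vehicle (median 3.15), and the 16 T and NK cell genes 1 rise and 12 falls (median -1.54). Of 25 type I interferon genes 8 fell with vehicle (median -0.80), and 0 with LDL, though none of them passed the test of the difference between treatments.

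The difference between the LDL and the vehicle contrast was itself tested, and 4 of 19444 genes passed (0.0206%), all with a lower log2 fold change under LDL. At an unadjusted p under 0.05 there were 4050 genes, and DESeq2 called 32. With the long-short balance as a covariate 4 genes were called, of which 3 were shared with the main fit. That balance was -0.70, -0.42 and 0.20 in the Jak2VF vehicle libraries and 0.31, 0.35 and 0.14 in the Tet2KO vehicle libraries. The part of the balance in the differences between treatments was not tested further. Lcn2, an iron-scavenging granule protein that macrophages also make, held 15.8, 19.6 and 16.8 CPM in Jak2VF and 11.4, 5.05 and 7.03 CPM in Tet2KO with LDL, and 35.1, 34.3 and 27.6 CPM in Jak2VF and 2.43, 2.74 and 2.11 CPM in Tet2KO with vehicle (difference -2.59 ± 0.32, adjusted p = 0.00159). S100a8 held 199.8, 185 and 139.7 CPM in Jak2VF and 12.4, 10.5 and 9.79 CPM in Tet2KO with vehicle, a wider gap than with LDL (-1.93 ± 0.29, adjusted p = 0.0122). For Il1f9, an interleukin 1 family cytokine, the genotypes overlapped with LDL, at 11.5, 9.78 and 10.03 CPM in Jak2VF and 14.6, 10.9 and 10.3 CPM in Tet2KO, but not with vehicle, at 6.73, 5.14 and 5.86 CPM in Jak2VF and 1.76, 1.15 and 1.11 CPM in Tet2KO (-2.33 ± 0.31, adjusted p = 0.00214). For Cxcl1, a neutrophil attractant, they held 136, 118 and 136 CPM in Jak2VF and 149, 139 and 165 CPM in Tet2KO with LDL, and 73.1, 53.9 and 42.6 CPM in Jak2VF and 25.5, 28 and 22.8 CPM in Tet2KO with vehicle (-1.37 ± 0.23, adjusted p = 0.0401). With LDL alone, neither Il1f9 nor Cxcl1 was called between the genotypes (-0.20 and -0.21, adjusted p = 0.671 and 0.557). With 1 library left out, Lcn2 and Il1f9 kept the call for the difference between treatments in all such fits. S100a8 lost it without Tet2KO vehicle library 2 or 3, or without Jak2VF LDL library 1 or 3, and Cxcl1 lost it for most libraries left out. Il1b did not pass this test (-1.34 ± 0.39, adjusted p = 0.222), while with vehicle it held 120.2, 85.7 and 71.8 CPM in Jak2VF and 102, 99.8 and 82.2 CPM in Tet2KO and was not called (-0.03 ± 0.28, adjusted p = 0.952).

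**Figure D5:**
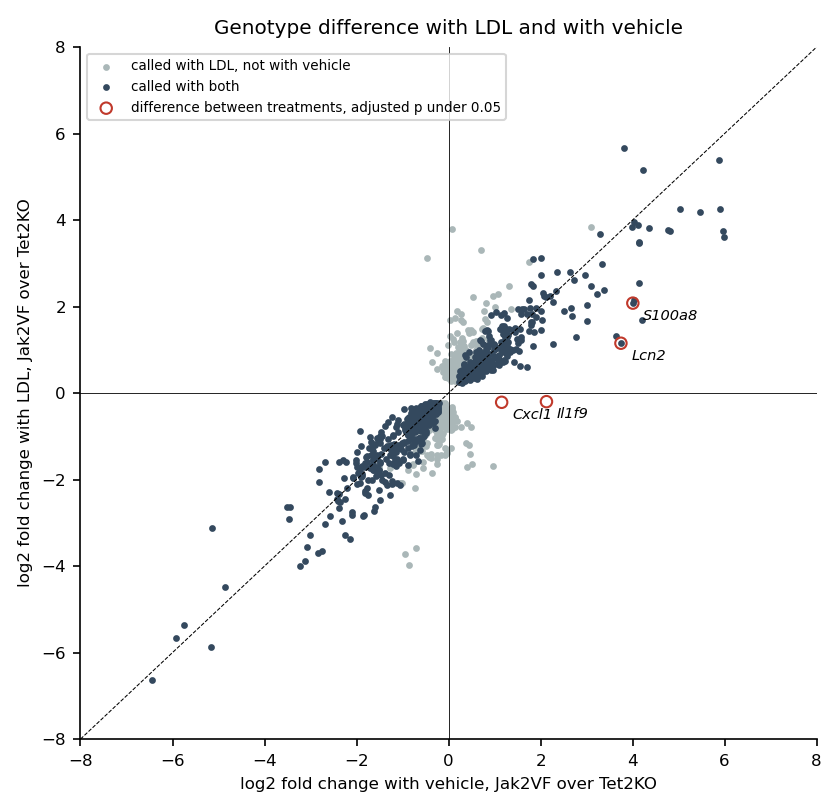
Log2 fold change, Jak2VF over Tet2KO, with LDL (vertical axis) and with vehicle (horizontal axis) for the 1187 genes called with LDL and the 4 genes whose difference between treatments passed (red rings); the dashed line marks equal values. The 731 genes called with both lie in the upper right and lower left, and the 4 ringed genes lie below the line.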

How the data were processed

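The genome build was mm10, per the submitters' processing notes (aligner, counter and annotation not given in the sources used here). Per the labels' protocols, both ribosomal RNA removal and poly-A selection are named for the libraries. The deposited values are whole-number read counts per gene that were not scaled between libraries, although the authors call them normalized. The main set held 24 libraries (8 groups of 3) with totals of 24105237 to 43904761, and batch 1 held 10 with totals of 15171143 to 44449473; the 2 sets were fitted apart. Gene names and coordinates came from GENCODE M21 on GRCm38, and 52457 of 52550 genes of the main table had a name after this match. Counts were tested with the quasi-likelihood test of edgeR 4.0.16 in R 4.3.3 after TMM scaling, with all 24 libraries in the fit (16 residual degrees of freedom), for the 19444 genes that reached 10 counts in 3 or more libraries, which hold 99.9% of the counts; batch 1 needed 2 libraries. Tests are two-sided, p-values were adjusted by Benjamini-Hochberg over all genes of a comparison and called under 0.05, and values after ± are standard errors of log2 fold changes. CPM are counts scaled to the TMM-adjusted library total. The script was tested on simulated data. Alternatives were DESeq2 1.42.0, other scalings, no filter, the compared groups alone, a replicate block, each library left out and, chosen after the data were seen, a covariate for the balance of long (over 10088 bases) and short (under 1529 bases) transcripts.

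Genes named are Capn11, Ltf, Gdf3, Jak2 and Tet2, the 12 largest rises and 12 largest falls among called genes whose groups do not overlap (mean of at least 2 CPM in the higher group, with a symbol of their own), up to 4 called members of each of 37 gene lists with the smallest adjusted p, and the genes of the interaction. Other genes, among them Mid1, Nectin3, Alpk1, Tifa and members named for their role, were chosen after their values were seen. The members and the lists were chosen with earlier results of these data known, so lists get counts and medians only; 588 of 657 list genes were tested, and genes that miss the filter stay out of the counts. Replicate numbers in the titles did not pair Jak2VF with Tet2KO: deviations from the group means correlated at -0.55, -0.83 and 0.26 with LDL and -0.01, -0.08 and -0.31 with vehicle. For unlike numbers with LDL the values ran from -0.71 (Jak2VF library 3 with Tet2KO library 1) to 0.78 (Jak2VF library 2 with Tet2KO library 1). Libraries of the 2 genotypes thus varied together, but not by title number. Tet2KO and WT with LDL correlated at 0.87, 0.88 and 0.72 for same numbers, and the block gave 608 calls against 537. Precision rests on 3 libraries per group, with a common coefficient of biological variation of 0.137 in the main set and 0.199 in batch 1. No libraries of a group agreed within sampling noise. A few members of the gene lists count in the totals but are not reported here by name.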

Additional observations from a re-analysis of the deposited data

Results flagged for a closer look

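In 4 genes the difference between Jak2VF and Tet2KO macrophages itself differed between LDL and vehicle by a test of that difference (edgeR's quasi-likelihood test, adjusted p under 0.05 over all genes). The log2 fold change with LDL minus that with vehicle was -2.59 for Lcn2, -2.33 for Il1f9, -1.93 for S100a8 and -1.37 for Cxcl1, from 3 libraries in each of 4 groups. With the covariate for the balance of long and short transcripts, 3 of the 4 genes kept the call. For Lcn2 and S100a8 the Jak2VF libraries lay above the Tet2KO libraries with both treatments, and the gap was wider with vehicle. For Cxcl1 the Jak2VF libraries lay above the Tet2KO libraries with vehicle. With LDL they lay below them, but that difference was not called (-0.21, adjusted p = 0.557).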

How the results depend on the processing

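For the LDL comparison, 1187 genes were called; the count was 380 with the compared groups alone, 2310 with the long-short covariate, 394 with at least a 2-fold change as well, and 688 to 1122 with a library left out. With library totals alone its split was 654 higher and 545 lower, against 555 and 632. The vehicle count of 3010 was 1296 to 5523 with a library left out, and its split of 1397 higher and 1613 lower became 1538 and 1402 with library totals and 1834 and 1546 without a filter. The difference between LDL and vehicle gave 4 calls, against 32 with DESeq2, 712 without a filter on low counts, 2 with the compared groups alone and 2 to 11 with a library left out. With the covariate the vehicle comparison gave 2858 calls, of which 1871 were shared with the main fit. The difference gave 4 with the covariate, of which 3 were shared. Jak2VF against WT with LDL gave 1938 calls (819 higher, 1119 lower), 276 with the compared groups alone and 631 to 4487 with a library left out; with library totals alone the split was 1047 higher and 747 lower. Tet2KO against WT with LDL gave 537, 39 with the compared groups alone, 1148 with the covariate and 361 to 840 with a library left out. Batch 1 gave 83, 406 with DESeq2, 136 without a filter, 1 with the compared groups alone and 8 to 38 with a library left out. The replicate block gave 1384 calls for the LDL comparison, 3478 for vehicle, 3 for the difference, 2328 for Jak2VF against WT and 31 for batch 1; of the named genes, Cxcl1 lost its call in the difference under the block. The Tet2 log2 fold change of 0.06 was not called and turned to -0.19 with the covariate, and ran from -0.14 to 0.47 with a library left out. List medians changed sign in 8 of 36 lists under 1 or more settings: the monocyte median (-0.11) to 0.06, lipid uptake (-0.04) to 0.07 and DNA methylation (0.02) to -0.09 with the covariate, TGF-beta (0.07) to -0.06 without Tet2KO library 1 and brain (-0.21) to 0.06 without Tet2KO library 3, with p53, calpain and Tet2 neighbour genes the other 3. The cause of these changes was not tested. Over the named genes in the LDL comparison with a library left out, 513 of 678 values of called genes kept the call and 165 lost it; of the 24 values of genes not called, 1, of Jak2, gained a call and 4, all of Tet2, changed sign. From the 6 libraries alone 53 of 113 called named genes lost the call. Low genes are limited by depth: Gdf3 rests on 3, 8 and 10 counts in the Jak2VF libraries.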
